A study of Phormium tenax with 2 samples.

Results

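The unigenes described here were well expressed in leaves of Phormium tenax (New Zealand flax) under drought and far lower in leaves of watered plants. A unigene is a cluster of assembled transcripts that stands in for a gene, since no genome was used and no unigene has a position on a chromosome. The members were chosen from the readout itself. They had at least 1000 estimated reads in the drought library, at least 1 in the control library, and a drought CPM (estimated reads scaled to a library total of 1000000) of at least 16 times the control CPM. Of the 75265 unigenes, 165 met these limits, which is 4.46% of the 3702 unigenes that had enough reads to be judged. The rule then left out 10 of them by identifier, and 155 members remained. The paper or its supplement lists all 10 of the unigenes left out and none of the 155 members, so the members are given by identifier with no gene name, family or function.

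Plants of the drought library (T01) stood in soil brought down to 25% of its saturated water content, and plants of the control library (T02) in soil held at 70%. Both held leaf blade RNA of plants that were aged 1 year when potted. Watering of the drought plants was stopped until the soil reached its target, and both groups were harvested 10 days after that. Each library mixed the RNA of 3 plants in equal parts. No genotype, transgene or other agent separated the groups in the labels or the methods. Estimated reads totalled 17744082 for drought and 18540627 for the control. Since each condition has 1 pooled library, the spread between plants is unknown and no p-value is given. The intervals below are exact (Clopper-Pearson) at 95%, computed for the part of a unigene's reads that came from drought and turned into a CPM ratio. They cover counting error only, with PCR copies counted as if independent, and leave out error in dividing reads between similar sequences. Because the tissue is a whole leaf blade, a higher share of a cell type and more RNA per cell cannot be told apart, and the labelled tissue was not checked against marker genes because the tables name no gene.

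Leaves that lose water close their stomata, and the hormone abscisic acid accumulates and starts a wide change of transcription. In other plants the genes known to respond include those for dehydrins, which shield proteins and membranes as cells dry out, for aquaporins and sugar transporters, for the making of proline and raffinose, and for bZIP factors that bind promoters under abscisic acid. Jasmonate, a lipid-derived hormone of wounding and defence, acts beside abscisic acid in many species. Which of these roles the 155 members have cannot be read from the tables, and nothing below assigns one.

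The 155 members together took 4.67% of the estimated reads of the drought library and 0.138% of those of the control library. Exact 95% intervals of these shares were 4.66% to 4.68% in drought and 0.136% to 0.139% in the control. The sums behind them were 828140 reads in drought and 25519 in the control. These shares follow from the rule that chose the members and are a description of how much of each library they filled. The 10 unigenes left out by identifier would have added 0.389% of the drought reads.

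A member had between 1020 and 55640 reads in drought (median 2965) and between 1 and 3238 in the control (median 73). The median drought CPM was 167 and the median control CPM was 3.94. The CPM ratio ran from 16.2 to 6479 with a median of 38.0, or 5.25 on the log2 scale. The median CPM ratio of the 3702 unigenes that could be judged was 1.22. A ratio of 16 to under 32 was found in 65 members, 32 to under 64 in 41, 64 to under 128 in 13, 128 to under 256 in 17, and 256 or more in 19. Most members therefore lay in the classes closest to the limit of 16, while a minority was spread over a long upper range.

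**Figure D1:**
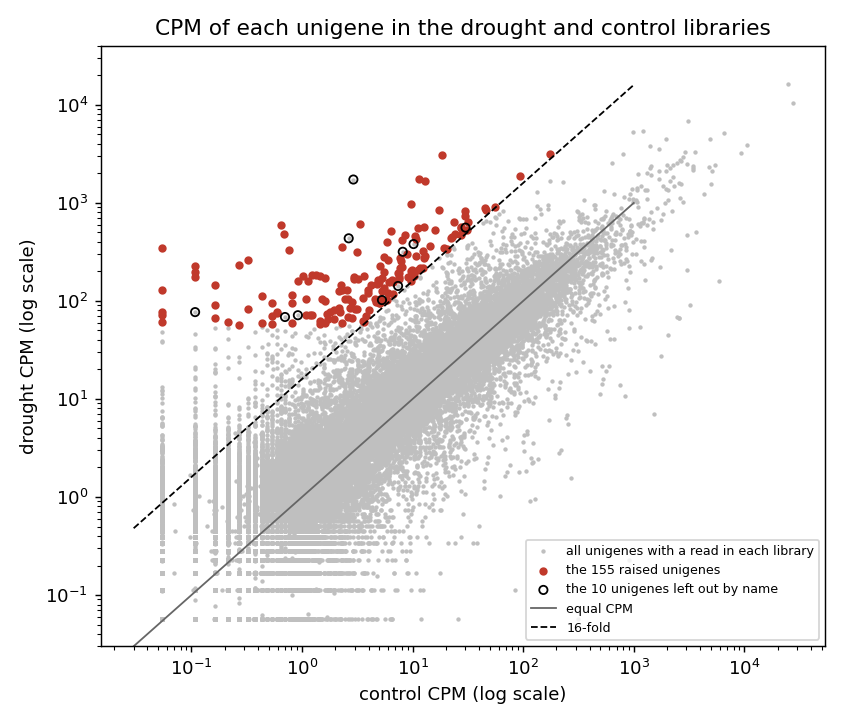
CPM of each unigene with at least 1 read in each library, drought on the vertical and control on the horizontal log axis, with lines for equal CPM and for 16-fold. The 155 members (filled) lie above the 16-fold line, between a control CPM of 0.0539 and 175, and the 10 unigenes left out by identifier (open) lie among them.

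Levels of different unigenes were compared as TPM, which is scaled for length and sums to the same total in both libraries. Drought TPM of the members ran from 29.96 to 3735, a 125-fold range, with a median of 161. Control TPM ran from 0.05 to 87.9, a 1758-fold range, with a median of 3.93. The SD of log2 TPM over the members was 1.33 in drought and 2.22 in the control. The lower limit of 1000 drought reads narrows the drought range by itself, while control reads could fall to 1. In 11 members the control reads were 1 to 3, where counting error widens the log2 spread. The SDs are therefore a description only. A TPM of at least 100 was reached by 115 members in drought and by 0 in the control. In the control 30 members lay under a TPM of 1, against 0 in drought.

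Ranked by TPM among all 75265 unigenes, 11 members were among the 100 highest of the drought library and 0 among the 1000 highest of the control library. The member with the best control rank, c60663.graph_c5, stood at place 35 in drought and 1852 in the control. The median place of the members was 833 in drought and 18594 in the control. Like the TPM levels above, these places follow in large part from the rule that chose the members. Of the 11 members among the 100 highest in drought, 5 had a CPM ratio of at least 64. Of the same 11, 7 consisted of 1 assembled transcript, beside 68 of all 155 members (43.9%).

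The most abundant member per length was c66123.graph_c0 (960 bp, 1 transcript). It had 54323 reads in drought and 344 in the control, or 3735 and 24.1 TPM, and its CPM ratio was 165 (interval 148 to 184). It held place 10 of all unigenes in the drought library, against place 6792 in the control library. Next stood c66125.graph_c0 (577 bp, 1 transcript), with 29690 reads in drought and 240 in the control. Its TPM was 3602 in drought and 29.7 in the control, and its CPM ratio was 129 (interval 114 to 147). The intervals of the ratio of these unigenes do not overlap, but by counting error alone, and their levels in drought were close.

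Behind them in drought TPM came 3 members with far lower ratios. The unigene c60663.graph_c5 (a mean length of 393 bp in drought) had 8304 reads in drought and 504 in the control, 1590 and 87.9 TPM, with a ratio of 17.2 (interval 15.7 to 18.9). For c58044.graph_c0 there were 33633 reads in drought and 1744 in the control, 1355 and 71.6 TPM, with a ratio of 20.2 (interval 19.2 to 21.2). The other member of component c60663, c60663.graph_c2 (307 bp, the shortest of all members), had 4918 reads in drought and 233 in the control, 1294 and 62.6 TPM, with a ratio of 22.03 (interval 19.3 to 25.3). All 3 were already well above the median control TPM of the members.

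By reads alone the highest member was c28826.graph_c0, a unigene of 3196 bp. Its reads were 55640 in drought and 3238 in the control, its TPM 1084 and 64.1, and its ratio 17.96 (interval 17.3 to 18.6). No other member had more control reads. The 10 members with the highest drought CPM held 34.3% of the drought reads of all 155, and the first 5 alone held 24.7%, or 1.15% of the whole drought library. These 10 fell into a group of 4 with ratios of at least 64 and a group of 6 below that.

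The 4 with the higher ratios were c66123.graph_c0 and c66125.graph_c0, given above, with c59199.graph_c0 and c19545.graph_c0. The reads of c59199.graph_c0 (1792 bp) were 31175 in drought and 212 in the control, with a CPM of 1757 and 11.4 and a ratio of 154 (interval 134 to 177). Those of c19545.graph_c0 (1339 bp) were 17194 in drought and 180 in the control, with a CPM of 969 and 9.71 and a ratio of 99.8 (interval 86.2 to 116). All 4 consist of 1 transcript each, as do 43.9% of all members.

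Of the 6 with lower ratios, c28826.graph_c0 and c58044.graph_c0 are described above. The unigene c52494.graph_c0 stood between the groups, with 15210 reads in drought and 323 in the control and a ratio of 49.2 (interval 44.1 to 55.1). For c63596.graph_c1 there were 15769 reads in drought and 839 in the control (ratio 19.6), and for c54665.graph_c0 15098 in drought and 854 in the control (ratio 18.5). The intervals of the last 2 overlap. The lowest ratio of all members belonged to c64834.graph_c0, with 16119 reads in drought and 1039 in the control (ratio 16.2, interval 15.2 to 17.3).

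**Figure D2:**
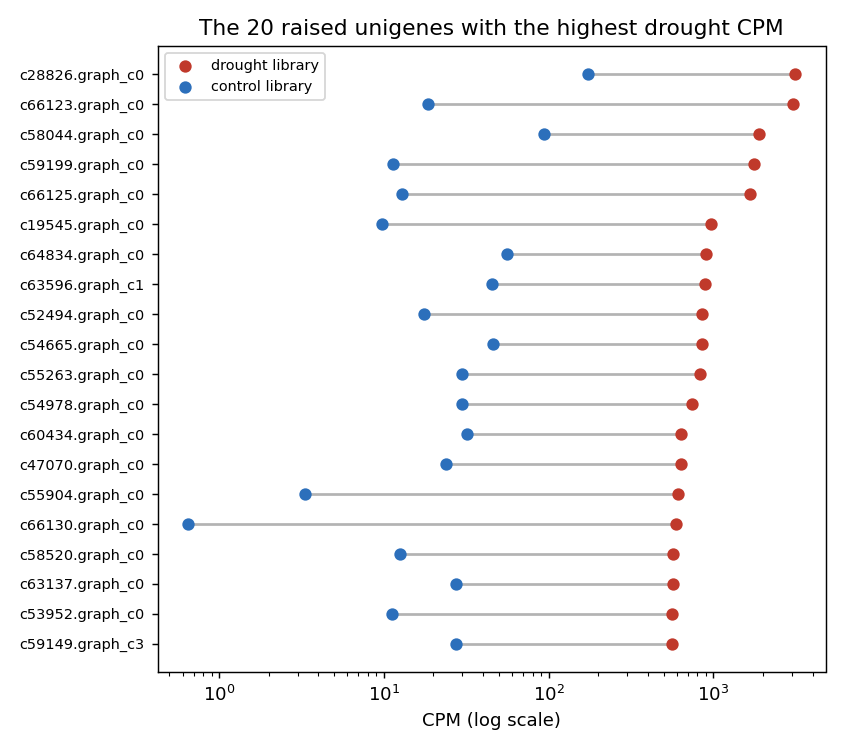
CPM of the 20 members with the highest drought CPM, on a log axis, with the drought library and the control library as points joined by a line for each unigene. Drought CPM falls from 3136 to 560 down the list, whereas control CPM is scattered from 175 (c28826.graph_c0) to 0.647 (c66130.graph_c0).

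Among the members with at least 10 control reads, c66130.graph_c0 (816 bp, 1 transcript) had the highest ratio. Its reads were 10494 in drought and 12 in the control, its TPM 862 in drought and 1 in the control, and its ratio 914 with an interval of 523 to 1769. Next to it stood c29003.graph_c0, with 8505 reads in drought and 12.6 in the control and a ratio of 705 (interval 399.5 to 1284), and then c54914.graph_c0, with 5927 reads in drought and 14 in the control and a ratio of 442 (interval 263 to 810). The intervals of all 3 overlap, and this depth could not rank them.

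The other 7 of the 10 highest ratios in this class lay between 152 and 182. They include c66123.graph_c0 and c59199.graph_c0, which rest on over 200 control reads each. The unigene c55904.graph_c0 (1050 bp) had 10813 reads in drought and 62 in the control, with a ratio of 182 (interval 142 to 238). For c60255.graph_c0 (2229 bp) the reads were 6269 in drought and 43 in the control, with a ratio of 152 (interval 113 to 211). The remaining 3 rest on 10 to 19 control reads, namely c30767.graph_c0 (1678 reads in drought and 10 in the control, ratio 175), c66158.graph_c0 (3176 and 19, ratio 175) and c64942.graph_c1 (2806 and 17, ratio 172). Of the 10 members with the highest ratios in this class 9 consist of 1 transcript, and c64942.graph_c1 of 14. Among all 155 members the share with 1 transcript was 43.9%. Among the 18 members with 1 to 9 control reads, whose ratios reach higher still, it was 50%.

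The number of control reads set how well a ratio was known. With 100 or more control reads (64 members) the interval spanned a median of 0.41 on the log2 scale, with 10 to 99 (73 members) 0.91, and with 1 to 9 (18 members) 3.83. The lower end of the interval was at or above 16-fold for 140 of the 155 members. The median drought TPM was 263 in the members with 100 or more control reads, 120 in those with 10 to 99, and 124 in those with 1 to 9. The rule itself favours the higher level of the first class, since 16-fold over 100 control reads needs more than 1000 drought reads. The lowest drought CPM of a member was 103, 58.3 and 57.5 in these classes. Of the 3596 unigenes with at least 1000 drought reads and 100 or more control reads, 1.89% met the rule, left-out unigenes included. Of the 87 with 10 to 99 control reads 89.7% did, and of the 19 with 1 to 9 control reads all did, because 1000 drought reads against 9 control reads already give a ratio of 116.

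**Figure D3:**
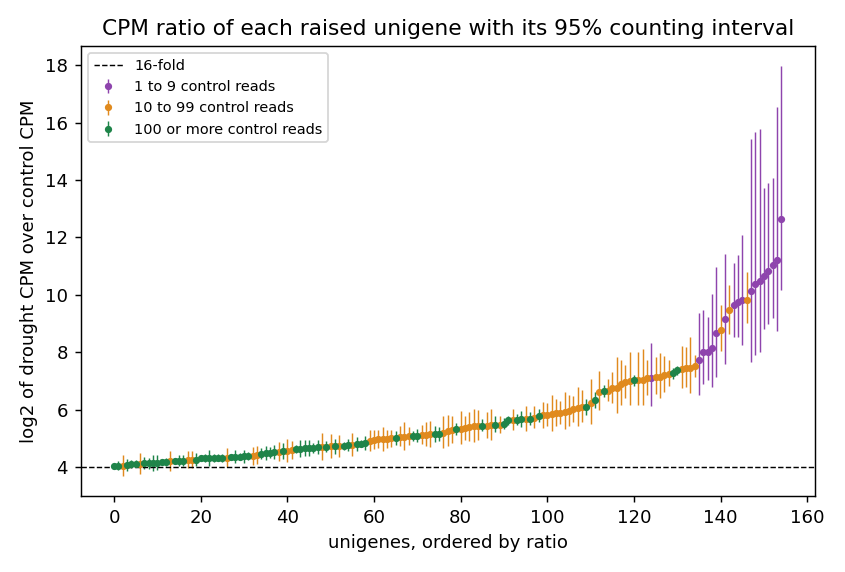
Log2 of drought CPM over control CPM for each of the 155 members, ordered by ratio, with exact 95% Clopper-Pearson intervals for counting error as bars and colours for the number of control reads. Bar length follows the control reads, with spans of at least 2.195 for 1 to 9 control reads. The spans are at most 1.95 for 10 to 99 control reads and at most 0.59 for 100 or more. Above a log2 ratio of about 8 most members have 1 to 9 control reads.

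Every member has at least 1000 drought reads by the rule, those with hardly any control reads included. The 5 with the fewest had 1 control read each, so that their ratios are known only within wide limits. The unigene c55227.graph_c1 (660 bp) had 6201 reads in drought and 1 in the control, 645 and 0.11 TPM, and a ratio of 6479 with an interval of 1162 to 255962. For c46688.graph_c0 there were 2301 reads in drought and 1 in the control (ratio 2405, interval 431 to 95005). The others were c51945.graph_c0 with 1377 drought reads, c39003.graph_c1 with 1274 and c66257.graph_c0 with 1084, and their intervals begin at 258, 238 and 203. All 5 intervals overlap. Of the 3712 unigenes with at least 1000 drought reads, 29 (0.781%) had fewer than 10 control reads, of which 18 are members, 1 was left out by identifier and 10 had 0 control reads and so fell outside the rule.

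Close to the limit, the members with the smallest ratios were c64834.graph_c0 (16.2), c52191.graph_c0 (16.47, from 6020 reads in drought and 382 in the control) and c60115.graph_c0 (16.52, from 1075 and 68). Just outside it were c59942.graph_c1 (15.99, from 2509 reads in drought and 164 in the control), c60914.graph_c1 (15.87, from 4920 and 324) and c49114.graph_c0 (15.7, from 1846 and 123). Counting error alone spans the limit for all 6.

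CPM makes no allowance for a shift of the bulk of the unigenes. The median log2 CPM ratio of the 3702 unigenes that could be judged was 0.28, and edgeR's TMM factors, which allow for such a shift, lowered every log2 ratio by 0.29. On the TMM scale the members had a median ratio of 31.2, the smallest ratio was 13.3, and 135 of the 155 were still at or above 16. Over the 3702 unigenes the share at or above 16 was then 3.84%. The mirrored rule, with at least 1000 control reads, 1 drought read and a control CPM of at least 16 times the drought CPM, was met by 54 of 3345 unigenes (1.61%), beside 165 in the direction of the members. The number in the direction of the members was higher under each scaling tried, with 142 against 62 under TMM factors.

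The rule made no use of how a unigene was assembled. Of the 155 members, 68 (43.9%) consist of 1 transcript, and of the 3547 other unigenes with at least 1000 drought reads 890 (25.1%) do. This was so for 9 of the 18 members with 1 to 9 control reads, for 45.2% of those with 10 to 99 and for 40.6% of those with 100 or more. The median length was 1193 bp in the members (quartiles 929 and 1618 bp) and 1634 bp in the others (quartiles 1178 and 2169 bp). The median drought TPM was 161 in the members and 78.0 in the others. These values describe the members and were not tested, since unigenes of the same 2 libraries are not replicates. A limit on drought reads favours long unigenes of a given abundance, and both groups had to pass it. The groups differed in control reads, with a median of 73 in the members and 1618 in the others. The comparison is therefore not like for like, and drought level was itself part of the rule.

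An estimated count that is not whole comes from counting that divides reads between similar transcripts. Within 0.005 reads, 13 members (8.39%) had a whole count in drought and 111 (71.6%) in the control. In the other well-expressed unigenes these shares were 12.2% in drought and 17.3% in the control. The members' control counts are far smaller (median 73 reads, against 1618 in the others), and the part of this in the difference was not tested.

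The length deposited for a unigene of several transcripts can differ between the libraries, and was read here as a mean over its transcripts weighted by their abundance. No source at hand states this. Under that reading a difference means that the reads of a library lie on transcripts of other lengths. Among the 87 members with several transcripts, the length differed by over 10% of the larger value in 18 (20.7%), beside 13.2% of all 2742 unigenes with enough reads and several transcripts. It was longer in drought in 12 of the 18 and longer in the control in 6, a split that the choice by CPM ratio can itself favour. In the other well-expressed unigenes with several transcripts it was longer in drought in 180 of 346. With at least 50 control reads, a limit chosen after seeing the data, 9 of 55 members (16.4%) passed 10%. Of the 2649 other well-expressed unigenes with several transcripts and at least 50 control reads, 12.9% did. Of the 9 members, 6 were longer in drought.

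The widest difference was that of c49174.graph_c0, a unigene of 2 transcripts. Its mean length was 3939 bp in drought and 1458 bp in the control, and its reads 3882 and 143. The CPM ratio was 28.3 (interval 24.0 to 33.8), but per length the unigene had 61.1 TPM in drought and 6.40 in the control, a ratio of 9.54. For c55263.graph_c0 the mean length was 1907 bp in drought and 1076 bp in the control, with 14796 reads in drought and 555 in the control, and the ratio was 27.9 in CPM and 14.3 in TPM. The unigene c60115.graph_c0, with 72 transcripts the most of any member, had 1536 bp in drought and 1021 bp in the control, and its ratio was 16.52 in CPM and 10.1 in TPM. In c57307.graph_c0 (1293 bp in drought and 658 bp in the control) and c49073.graph_c0 (686 and 441 bp) the control lengths rest on 10 and 3 reads, and the TPM ratios of 48.7 and 230 stayed far above 16.

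In all, the CPM ratio exceeded the TPM ratio by more than 1.5 times in 7 members, each of them longer in drought, and the reverse was found in 0. These 7 are 8.05% of the 87 members with several transcripts. Among the 2649 other well-expressed unigenes with several transcripts and a control read, 26 (0.982%) had a CPM ratio higher by more than 1.5 times and 10 (0.378%) a TPM ratio higher by as much. A greater length in drought raises the CPM ratio by which the members were chosen, so the rule favours this direction and the counts are a description only. In the 54 members of 1 transcript with a control TPM of at least 1, the log2 TPM ratio was lower than the log2 CPM ratio by a near-constant amount, with differences between -0.09 and -0.08. In members of several transcripts the difference ran from -1.57 to 0.19. By TPM 147 of the 155 members kept a ratio of at least 16.

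**Figure D4:**
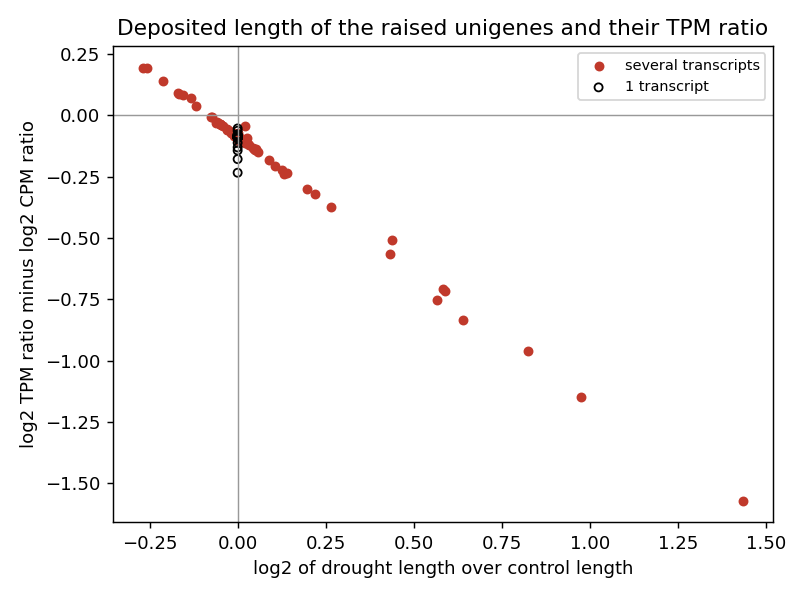
Log2 of drought length over control length (horizontal) and log2 TPM ratio minus log2 CPM ratio (vertical) for the 155 members, with members of several transcripts filled and members of 1 transcript open. The farthest point at the lower right is c49174.graph_c0, with a difference of -1.57, and the members of 1 transcript stand together at a length difference of 0.

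A Trinity component groups transcripts that share sequence, and may hold several unigenes. The members came from 153 components. Only c60663 and c64942 held more than 1 member, 4 members in all. Of the 155 members 115 were the sole unigene of their component, and 36 had at least 1 other unigene with 10 reads or more in both libraries together. The same counts were not made over unigenes that are not members, so these describe the members only. In c64942, c64942.graph_c1 had 108 TPM in drought and 0.72 in the control, and c64942.graph_c2 (1270 bp) had 132 and 0.16 TPM. The reads of c64942.graph_c2 were 2585 in drought and 3 in the control, with a ratio of 900 (interval 308 to 4369). The interval of c64942.graph_c1, 108 to 296, lies below that. In c60663 the ratios of 17.2 and 22.03 lay closer together, with intervals that do not overlap. Unigenes of a component can share reads, and the intervals in c60663 and c64942 do not cover how these were divided.

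These components held 49 other unigenes with at least 10 reads. Those with 1000 drought reads or more could not reach a ratio of 16 without being members themselves. The median CPM ratio of the 49 was 1.27, with 3 reads in place of 0, beside 1.34 over all unigenes with as many reads. A ratio of at least 4 was found in 14 of the 49 (28.6%), beside 18.2% of all such unigenes, and a ratio of 0.25 or less in 2, beside 6.45%. The 14 include 4 unigenes with 0 control reads and only 17 to 37 drought reads. Within 2-fold of equal CPM were 26 of the 49, and of the 17 that had at least 1000 drought reads 12 were. For the counts within 2-fold the share over all unigenes was not computed, so they describe these unigenes only. With at least 50 reads the numbers were 9 of 40 (22.5%) with a ratio of at least 4, beside 10.4%. Unigenes of a component can share reads with its members, which were chosen for high drought reads. The shares are therefore a description, and the part of shared reads in them was not tested.

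The unigene c55227.graph_c0 (1038 bp) had 26728 reads in drought and 21699 in the control, with a ratio of 1.29 (interval 1.26 to 1.31), beside the 6201 and 1 reads of c55227.graph_c1. In component c59149, c59149.graph_c4 (2599 bp) had 63338 reads in drought and 31286 in the control, a ratio of 2.12, while the member c59149.graph_c3 had 9937 and 506, a ratio of 20.5. The member c60139.graph_c0 had 7820 reads in drought and 410 in the control, a ratio of 19.9. The paper lists another unigene of that component, c60139.graph_c1, as an AP2 transcription factor (a plant family with many members that act in stress). It also counts c60139.graph_c1 among its differentially expressed genes and chose it for a PCR check. For the genes so checked, the paper reports that PCR and sequencing gave almost equal fold changes. In the deposited counts c60139.graph_c1 had 2084 reads in drought and 3029 in the control, a ratio of 0.719. On the log2 scale that is -0.476, short of the fold limit the paper states. The paper used EBSeq, which was not run here, and the reason for the difference was not tested. The unigenes of c60139 and c63010, c59149.graph_c3 and c57970.graph_c2 were singled out after their components' values were seen.

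In 14 of the 34 components at least 1 other unigene had a lower CPM in drought than in the control. The share over components without a member was not computed, so this count does not set the members' components apart. The only ratios of 0.25 or less among the other unigenes of the 34 components were in c57970 and c63010. The member c57970.graph_c2 had 1693 reads in drought and 93.1 in the control (ratio 19.0), whereas c57970.graph_c0 had 1178 and 47157 (ratio 0.0261) and c57970.graph_c1 had 11388 and 27821 (ratio 0.428). The member c63010.graph_c1 had 2878 reads in drought and 120 in the control (ratio 25.1), whereas c63010.graph_c2 had 29 and 537 (ratio 0.0565) and c63010.graph_c0 had 1291 and 4638 (ratio 0.291).

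**Figure D5:**
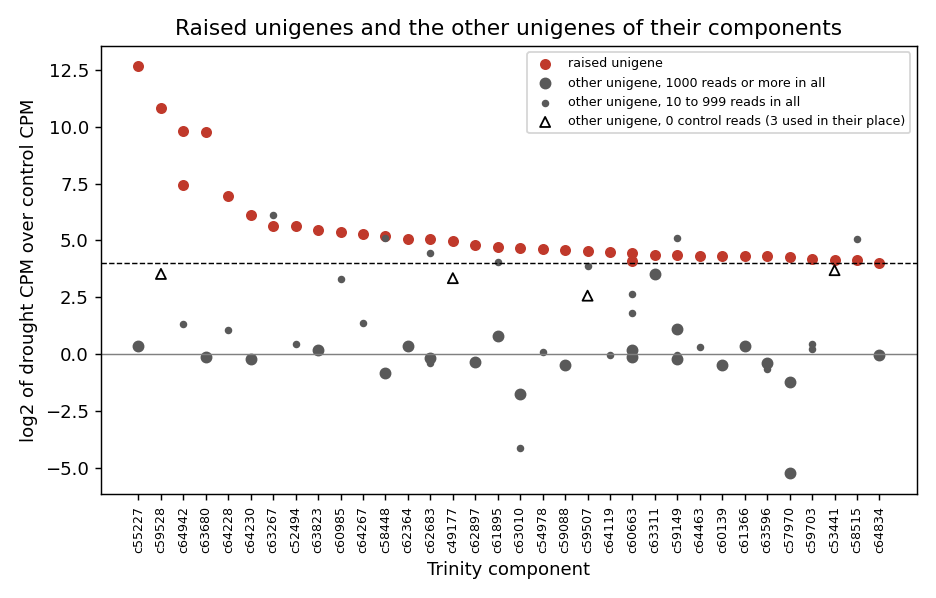
Log2 of drought CPM over control CPM for the 36 members that share a Trinity component with another unigene of at least 10 reads (red), and for the 49 other unigenes of the same 34 components (grey, larger with 1000 reads or more; open triangles are unigenes with 0 control reads, plotted with 3 in their place). The members lie above 4 by the rule, and most of the larger grey points lie near 0.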

How the data were processed

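Leaf blade RNA was sequenced as 1 pooled library per condition. The authors filtered the reads and assembled those of both libraries with Trinity. The submitters' processing notes name Bowtie 0.12.2, Cufflinks and the mouse build mm8, with no role, and which quantifier was used is not given in the sources at hand. The authors deposited, per unigene and library, an expected count (estimated reads, not normalized), an FPKM value, a TPM value and a length in bp. Expected counts were used as deposited for CPM, and rounded for intervals and for scaling factors (edgeR 4.0.16 and DESeq2 1.42.0 in R 4.3.3). Other values were computed with Python 3.11.15, NumPy 2.4.6, SciPy 1.17.1, pandas 2.3.3 and matplotlib 3.10.9. The study's EBSeq model was not run.

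The members and lists were chosen with earlier results of these data known. Members named are the 10 highest in drought CPM, the 10 highest in ratio with at least 10 control reads, the 5 highest in drought TPM, the 5 with the fewest and the 5 with the most control reads, the 5 with the widest change of length, the 3 nearest to the limit on each side, those sharing a component, and the 4 other unigenes of the components with the most reads. Alternatives were other scalings, limits, pseudocounts, FPKM and TPM.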

Additional observations from a re-analysis of the deposited data

How the results depend on the processing

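The number of members stayed within 1.5 times of 155 under TMM, upper-quartile and median-of-ratios factors (135, 118 and 131), FPKM (149), TPM (147), whole-number counts, 500 drought reads (216), 10 control reads (137), 3 control reads in place of fewer (165), intervals at or above 16-fold (140) and lengths of at least 300 bp. It was 102 with at least 2000 drought reads, 253 at 8-fold and 90 at 32-fold, as those limits imply. The median log2 ratio of 5.25 became 4.75 with upper-quartile factors, farther than 0.35, the median over members of the counting error to one side, and lay between 4.93 and 5.49 under the other settings. The members' share of the control library was 0.138% of reads and 0.135% of TPM. Unigenes past 16-fold in the direction of the members outnumbered those in the other 3.06 times by CPM and 1.79 times with upper-quartile factors (125 against 70, or 64.1% of both, beside 75.3% by CPM). The shares of component unigenes and of length differences stayed within 1.5 times. No paired analysis was possible because each condition has 1 library. No library could be left out for the same reason. Depth limits chiefly the 18 members with fewer than 10 control reads.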
